A study of Homo sapiens with 4 samples.

Results

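The genes described here are 10 members of the ATF4 branch of the integrated stress response and of amino acid supply. The 10 symbols were ATF4, ATF5, DDIT3, ASNS, CHAC1, TRIB3, DDIT4, SESN2, SLC7A5 and SLC3A2, and were looked up among the 26726 genes of the deposited tables. All 10 were found under 1 Ensembl identifier each, and all 10 were among the 15104 genes with enough counts for a test. HN12 is an HNSCC (head and neck squamous cell carcinoma) cell line. Cells with a CRISPR/Cas9 knockout of ATAD3A, a nuclear-encoded ATPase of the mitochondrial membrane, are called KO, and the parental cells are called WT. RNA from 2 cultures of each group gave 4 libraries, and both groups were grown in the same medium with serum and antibiotics. Knockout lines were derived from single seeded cells and screened by protein, and which clone gave each KO library is not stated, so the effect of the gene and the history of a clone cannot be told apart.

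The integrated stress response starts with kinases that phosphorylate the translation factor eIF2. General protein synthesis then slows, while the mRNAs of ATF4 and ATF5, which carry upstream reading frames, are translated more efficiently. ATF4 protein switches on genes for amino acid synthesis and import, and genes such as DDIT3 and TRIB3 when the stress lasts. In mitochondrial damage the signal can travel from the protease OMA1 through DELE1 to the kinase HRI, encoded by EIF2AK1. A part of this control is exerted on translation, which read counts of mRNA do not measure.

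ATF4 binds with C/EBP partners to composite sites in its target genes, and the core TGATGNAA (N is any base) was searched on both strands of the RefSeq promoters of GRCh38.p14, each 250 bases before to 50 bases after a start. It was found for 3 of the 10 genes, against 4.46% of the 27305 genes with a promoter in the table. By promoter it was found in 3 of the 19 of these genes, against 3.62% of all 35116 promoters. The palindrome TGACGTCA, which binds CREB and ATF factors, was found for 0 of the 10 genes and for 2.25% of all genes. The 3 stretches with a match are shown because they hold the core of the element to which ATF4 and its partners are known to bind, with the match in capitals and in the direction of the gene. They come from chr7:97872429-97872516 (minus strand), chr15:40953222-40953309 (plus strand) and chr11:62881726-62881748 (plus strand).
ASNS: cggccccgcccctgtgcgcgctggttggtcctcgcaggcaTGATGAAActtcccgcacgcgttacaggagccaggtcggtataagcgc
CHAC1: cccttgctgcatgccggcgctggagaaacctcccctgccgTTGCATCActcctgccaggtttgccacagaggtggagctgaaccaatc
SLC3A2: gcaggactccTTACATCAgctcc
In ASNS the match begins 68 bases before the start and lies on the strand of the gene. In CHAC1 it begins 209 bases before the start and in SLC3A2 at base 38 after it, both on the opposite strand, and in SLC3A2 it belongs to 1 of several annotated starts. Of these 3 genes, SLC3A2 passed the test between KO and WT cells while ASNS and CHAC1 did not. A match is a description of the letters and not evidence of binding.

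The levels per kilobase spanned more than 2 orders of magnitude. In RPKM, read counts divided by gene length and by the library total, SLC7A5 was highest with 1061 and 1002 in the WT libraries and 990.3 and 1025 in the KO libraries. SLC7A5 encodes the LAT1 chain of the carrier for leucine and other large neutral amino acids. Its partner SLC3A2, the 4F2 heavy chain that holds the carrier in the membrane, was next with 435 and 446 RPKM in WT and 524 and 503 RPKM in KO. ATF4 itself followed with 238 and 245 RPKM in WT and 256 and 240.0 RPKM in KO. The lowest of the 10 was CHAC1, which encodes an enzyme that degrades glutathione, with 4.36 and 3.08 RPKM in WT and 4.36 and 4.68 RPKM in KO. From the highest to the lowest the order was SLC7A5, SLC3A2, ATF4, DDIT4, ASNS, TRIB3, SESN2, ATF5, DDIT3 and CHAC1, and it was the same in both groups. The pair ATF5 and DDIT3 was the only pair of neighbours whose 2 libraries overlapped, in WT as well as in KO. These levels are shown in the plot of RPKM by gene.

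**Figure D1:**
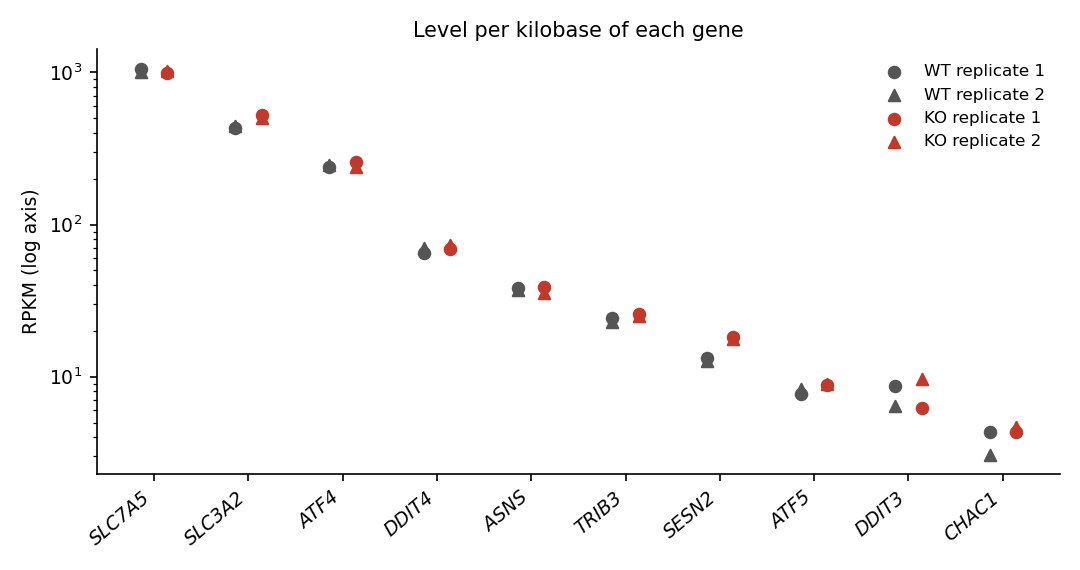
RPKM (log axis) of the 10 genes in each of the 4 libraries, ordered by the WT mean, with WT in grey, KO in red, circles for replicate 1 and triangles for replicate 2. SLC7A5 lay between 990.3 and 1061 RPKM, CHAC1 between 3.08 and 4.68 RPKM, and the order of the genes was the same in both groups.

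The targeted gene was examined first. ATAD3A counts were 1802 and 1471 in the WT libraries and 702 and 492 in the KO libraries, a log2 fold change of -1.70 (SE 0.091, adjusted p = 1.58e-17 by the quasi-likelihood test of edgeR), and the KO libraries were both below the WT libraries. Its near-identical neighbour ATAD3B had a log2 fold change of 0.96 (SE 0.072, adjusted p = 1.76e-13). How reads that fit both genes were treated in the counting is not given in the sources used here. Library totals were between 13569971 and 18943547 counts. All 9 keratinocyte markers were expressed, with a summed level between 2160 and 2180 CPM (counts relative to the TMM-scaled library total) in WT and between 4870 and 4910 CPM in KO. Of the 14 marker genes fixed for fibroblasts, leukocytes and endothelium, 10 were listed and 4 reached the test. The keratinocyte markers did not move together: KRT5 and KRT14, which make up most of the higher sum, had log2 fold changes of 2.63 and 2.20 (adjusted p = 9.74e-32 and 5.37e-27, edgeR), while DSG3, EPCAM and TP63 had values of -1.12, -0.34 and -0.28 (adjusted p = 1.36e-09, 6.28e-06 and 0.000164). The leukocyte genes summed to between 28 and 30.3 CPM in WT and between 23.2 and 23.5 CPM in KO, nearly all from LCP1, with CD68 at 0 counts in some libraries. The fibroblast genes summed to between 12.7 and 16.7 CPM in WT and between 11.8 and 14.9 CPM in KO, and the endothelial genes to between 1.52 and 2.39 CPM over all libraries. The part of these marker levels in the results below was not tested.

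Across the 10 genes, loss of ATAD3A went with small changes. SESN2 and SLC3A2 were higher in KO cells past an adjusted p of 0.05, 0 genes were lower and 8 did not pass (quasi-likelihood test of edgeR, Benjamini-Hochberg adjusted over all genes tested). The 2 called genes are 20% of the group. Among all genes tested, 20.4% were called higher, 19.1% were called lower and 39.5% were called in either direction, so the share of higher genes was at the background. The 0 lower calls come from only 10 genes, and their distance from the background was not tested. After a correction for length and GC content 1 of the 10, SLC7A5, was called lower. With library totals in place of TMM scaling the higher genes were 41% of all calls against 51.5% with TMM. All 10 log2 fold changes were above 0, against 49.6% of all genes, with a median of 0.16, but with library totals 8 of the 10 were above 0 and after a correction for length and GC content 3 of the 10. The median of all genes was -0.0042. In all 10 genes the 95% interval of the log2 fold change excluded a 2-fold change in either direction.

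**Figure D2:**
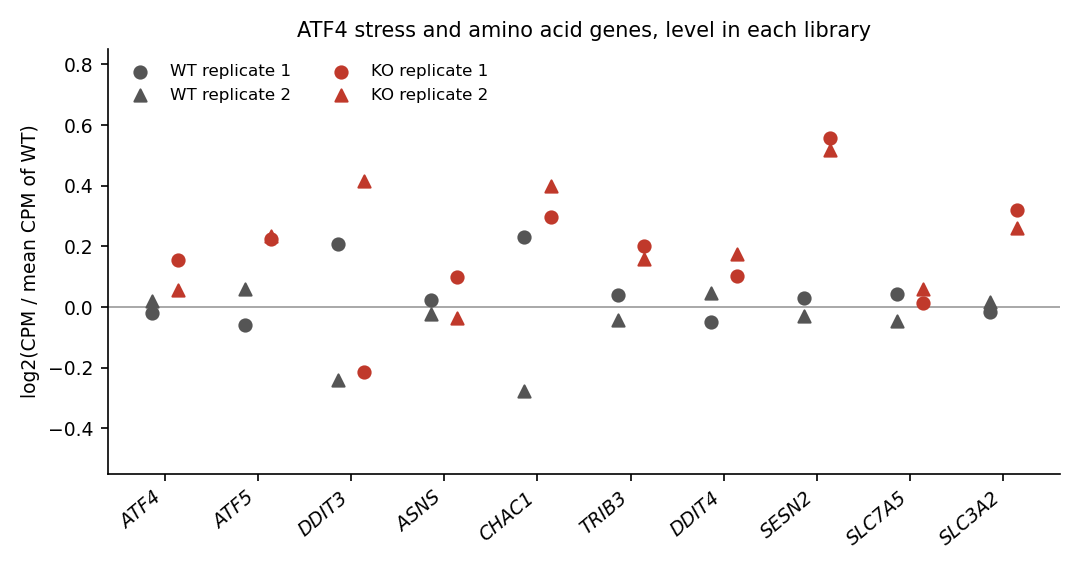
log2 of CPM over the mean WT CPM for the 10 genes in each library, with WT in grey, KO in red, circles for replicate 1 and triangles for replicate 2. The KO points of SESN2 and SLC3A2 stand clear of their WT points, while those of DDIT3, ASNS and SLC7A5 overlap them.

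The transcription factors of the response come first. ATF4 (ENSG00000128272, chromosome 22, 39519695 to 39522685, plus strand of GRCh38 in GENCODE release 29) was at 531 and 496 CPM in the KO libraries and at 471 and 483 CPM in the WT libraries. The KO libraries were both above the WT libraries, by a margin smaller than the gap between the KO pair. Its log2 fold change was 0.11 (95% interval 0.00026 to 0.21, SE 0.053) and did not pass the adjustment (adjusted p = 0.106, edgeR). The value was 0.17 without KO replicate 2 (adjusted p = 0.0102) and 0.063 without KO replicate 1 (adjusted p = 0.436), so 1 library decides this call. After the length and GC correction it was -0.10 (95% interval -0.19 to -0.016, adjusted p = 0.0593). About 22.9% of the 50-nt stretches of its longest transcript also occur in other genes, mainly the ATF4 pseudogenes, so part of its counts depends on how shared reads were treated.

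ATF5, a relative of ATF4 that takes part in the mitochondrial unfolded protein response, was at 18.88 and 19.02 CPM in KO and at 15.5 and 16.8 CPM in WT. The KO libraries lay above the WT libraries, and the log2 fold change of 0.23 (95% interval -0.049 to 0.51) did not pass the test (adjusted p = 0.192, edgeR). ATF5 lies on chromosome 19, where the 986 tested genes had a median log2 fold change of 0.25 and 4.16% were called lower. PPP1R15A, SLC1A5 and FARSA, given below, lie on the same chromosome. The part of that in the values of these genes was not tested. ATF5 overlaps genes on the opposite strand, and whether counting used strand is not given in the sources used here. DDIT3 encodes CHOP, the factor that links a lasting response to cell death. It was at 7.32 and 11.3 CPM in KO and at 9.82 and 7.19 CPM in WT. The groups overlapped and the replicates of either group differed more than the group means. Its log2 fold change was 0.12 (95% interval -0.30 to 0.54, adjusted p = 0.687, edgeR), and with each library left out in turn it ranged from -0.21 to 0.42. DDIT3 shares its locus with MARS, the gene of methionyl-tRNA synthetase, on the opposite strand.

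Among the target genes for amino acid supply, ASNS, which makes asparagine, was at 93.5 and 85.1 CPM in KO and at 88.7 and 85.9 CPM in WT. The KO pair spanned the WT pair, and the log2 fold change was 0.033 (95% interval -0.12 to 0.18, adjusted p = 0.767, edgeR), falling below 0 with library totals and on RPKM values. Of its 50-nt stretches 82.0% also occur in other annotated genes, chiefly an overlapping transcript on the same strand. SLC7A5 was at 4616.8 and 4764.0 CPM in KO and at 4715.0 and 4435.4 CPM in WT. The groups overlapped, with a log2 fold change of 0.036 (95% interval -0.049 to 0.12, adjusted p = 0.543, edgeR). This value was -0.034 with library totals and -0.15 after the length and GC correction, where it passed the threshold (adjusted p = 0.000386).

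SLC3A2 (ENSG00000168003, chromosome 11, 62856102 to 62888875, plus strand) was at 1289.5 and 1236 CPM in KO and at 1021 and 1044 CPM in WT. The KO libraries were both above the WT libraries, and SLC3A2 rose by a log2 fold change of 0.29 (SE 0.048, 95% interval 0.19 to 0.39, adjusted p = 5.33e-06, edgeR), or 1.22-fold. After the length and GC correction the value was 0.097 (adjusted p = 0.0387), and with the replicate number as a block in that same fit the adjusted p was 0.0707. The ratio of SLC3A2 to SLC7A5 in RPKM was 0.529 and 0.491 in KO and 0.410 and 0.446 in WT. The ratio was thus higher in both KO libraries than in either WT library, and this difference was not tested.

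SESN2 (ENSG00000130766, chromosome 1, 28259527 to 28282491, plus strand) had the largest change of the group. It encodes sestrin 2, a leucine sensor that restrains the growth kinase mTORC1 and is induced by ATF4 and by p53. Its level was 64.6 and 62.9 CPM in KO and 44.8 and 43.0 CPM in WT. The gap between the groups was far wider than either pair, and SESN2 rose by a log2 fold change of 0.54 (SE 0.087, 95% interval 0.36 to 0.71, adjusted p = 4.4e-06, edgeR), or 1.45-fold. Leaving out each library in turn gave 0.51 to 0.57, and the length and GC correction gave 0.36 (adjusted p = 0.000655). By log2 fold change it ranked 1921 of the 15104 genes tested. None of its 50-nt stretches was found in another gene. When calls were made on the raw p with a minimum fold, SESN2 was the only one of the 10 to pass as higher, where 17% of all genes did, and 0 passed as lower, against 12.2% of all genes.

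DDIT4, also called REDD1, is another brake on mTORC1, induced by ATF4, by low oxygen and by glucocorticoids. It was at 125 and 131 CPM in KO and at 112 and 120.0 CPM in WT, and the log2 fold change of 0.14 (95% interval 0.0048 to 0.27) did not pass the adjustment (adjusted p = 0.0946, edgeR). Without KO replicate 1 it was 0.18 (adjusted p = 0.0469), and after the length and GC correction it was -0.11 (adjusted p = 0.162). TRIB3, a pseudokinase that binds ATF4 and dampens its activity, was at 66.3 and 64.4 CPM in KO and at 59.3 and 56.0 CPM in WT. Its log2 fold change was 0.18 (95% interval 0.013 to 0.35, adjusted p = 0.0819, edgeR), and -0.07 after the correction. CHAC1 was at 8.24 and 8.84 CPM in KO and at 7.88 and 5.54 CPM in WT. That difference rests largely on WT replicate 2: the log2 fold change of 0.34 (95% interval -0.082 to 0.76, adjusted p = 0.204, edgeR) was 0.11 without that library and 0.63 without WT replicate 1. In TMM-scaled CPM both KO libraries were above both WT libraries in 7 of the 10 genes, against 34.1% of all genes tested, and below them in 0 of the 10, against 34% of all genes. On the deposited RPKM, a scale chosen for this count after seeing the data, ATF4, DDIT4 and CHAC1 overlapped as well, which left ATF5, TRIB3, SESN2 and SLC3A2, or 4 of the 10, above, against 28.7% of all genes, and 0 below, against 40% of all genes.

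**Figure D3:**
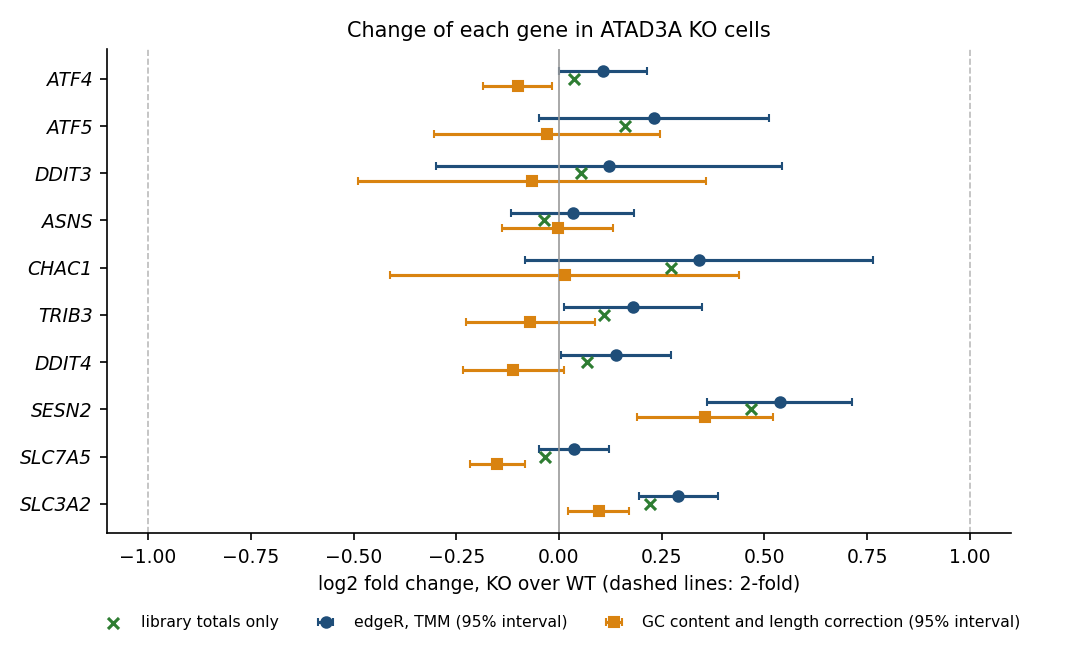
log2 fold change of KO over WT for the 10 genes with 95% intervals, from the edgeR fit with TMM scaling (circles) and with the length and GC correction (squares), beside the value with library totals only (crosses). All intervals lie inside the dashed lines of a 2-fold change, and the correction moves every gene towards lower values, leaving SESN2 at 0.36 and SLC3A2 at 0.097.

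The GC content of the 10 genes had a median of 58.8%, against 48.2% over all genes tested, and their median length was 2212.5 nt against 3137.5 nt. The part of GC content and length in the results was not tested beyond the correction itself.

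The list of eIF2 and eIF2B subunits, eIF2 kinases with their regulators, and phosphatase subunits held calls in both directions. Of 21 genes, 6 were called higher and 8 lower (28.6% and 38.1%), with a median log2 fold change of -0.0995. Over all genes the shares were the 20.4% higher and 19.1% lower given above, against which this and the following lists are to be read. Without WT replicate 2 the counts were 4 higher and 4 lower, and on log2(RPKM + 1) values 3 were higher. The higher genes included PPP1R15A, which encodes GADD34, the ATF4-induced subunit that directs a phosphatase back to eIF2. It was at 108 and 98.2 CPM in KO and at 67.4 and 70.1 CPM in WT, with a log2 fold change of 0.59 (adjusted p = 5.79e-08, edgeR). PPP1CB, a catalytic subunit of that phosphatase family, had a log2 fold change of -0.58 (adjusted p = 3.8e-10). The other catalytic subunits of the list differed in direction. PPP1CA had a value of 0.50 (adjusted p = 4.45e-08, edgeR) and PPP1CC of -0.21 (adjusted p = 0.00308).

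Of the mitochondrial branch, OMA1 had a log2 fold change of -0.54 (adjusted p = 0.0484) and DELE1 of 0.30 (adjusted p = 0.00416). The call of OMA1 was lost with DESeq2 (adjusted p = 0.243) and, in edgeR, without the filter on low counts (adjusted p = 0.0725). It was also lost with at least 10 counts in every library (adjusted p = 0.0516) and after the length and GC correction (adjusted p = 0.0739). With each library left out in turn its value ranged from -0.65 to -0.41. The call of DELE1 was lost on log2(RPKM + 1) values (adjusted p = 0.0683). EIF2AK1, the kinase HRI, had a log2 fold change of -0.17 (adjusted p = 0.0126). The call of EIF2AK1 was lost without either WT library. EIF2AK4, the amino acid sensor GCN2, was at 96.2 and 94.1 CPM in KO and at 110 and 117 CPM in WT, a log2 fold change of -0.25 (adjusted p = 0.00307), which did not pass without WT replicate 2 (adjusted p = 0.106). EIF2AK3, the endoplasmic reticulum sensor PERK, had a value of -0.31 that did not pass (adjusted p = 0.0581) but passed with library totals (-0.38, adjusted p = 0.0195). The kinase PKR, encoded by EIF2AK2, was at 132 and 138 CPM in KO and at 193 and 189 CPM in WT. Its log2 fold change was -0.50 (adjusted p = 2.57e-08, edgeR). IMPACT, a protein that keeps GCN2 inactive, fell by 0.73 on the log2 scale (adjusted p = 2e-08). IMPACT lies on chromosome 18, where 71.3% of the 195 tested genes were called lower and the median log2 fold change was -0.76, and the part of that in its fall was not tested.

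Among factors that pair or compete with ATF4, 3 of 10 tested genes were called higher and 2 lower (30% and 20%, against 20.4% and 19.1% of all genes). The lower count was 1 without KO replicate 2, without WT replicate 1 or without WT replicate 2, and 5 with library totals. CEBPB, a C/EBP factor that can dimerize with ATF4, rose by a log2 fold change of 0.66 (adjusted p = 5.43e-10, edgeR), from 82.5 and 82.3 CPM in WT to 128 and 133 CPM in KO. JDP2, a repressor of the AP-1 and ATF family, rose by 0.63 (adjusted p = 3.1e-05), and ATF6, an endoplasmic reticulum stress factor, fell by 0.50 on the log2 scale (adjusted p = 2.05e-06). CEBPD had a value of 0.35 (adjusted p = 0.000764) that turned to -0.12 after the length and GC correction. ATF3, an early target of ATF4, was at 7.05 and 7.80 CPM in KO and at 6.78 and 7.33 CPM in WT, a log2 fold change of 0.074 (adjusted p = 0.818).

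Of 19 tested targets of ATF4 or CHOP outside the 10 genes, 3 were called higher and 5 lower, with a median of -0.19, and with library totals 8 were lower. CTH, which makes cysteine from cystathionine, rose by a log2 fold change of 0.68 (adjusted p = 3.87e-05, edgeR), and EIF4EBP1, a repressor of cap-dependent translation, had a value of 0.37 (adjusted p = 7.31e-05), which turned to -0.10 after the correction. NDRG1 fell by 2.09 on the log2 scale (adjusted p = 1.8e-25) and ERO1A, an oxidase of protein folding, fell by 0.44 (adjusted p = 5.89e-08). Both are hypoxia-responsive as well. FGF21, a hormone released in mitochondrial stress, had too few counts for a test. It had 3 counts in KO replicate 1 and 0 counts in the other libraries. There 0 counts allow up to 0.216 CPM, a limit for counting error only. GDF15, of the same list, was at 13.72 and 14.02 CPM in KO and at 16.34 and 15.31 CPM in WT. Its log2 fold change of -0.19 did not pass (adjusted p = 0.332, edgeR).

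Amino acid transporters outside the 10 genes had 5 of 14 tested members called higher and 3 lower, with a median of 0.078. SLC1A4 and SLC6A9, carriers of neutral amino acids and of glycine, had log2 fold changes of 0.61 (adjusted p = 0.000816) and 0.58 (adjusted p = 9.43e-05), and SLC1A4 did not pass on log2(RPKM + 1) values (adjusted p = 0.0506). SLC1A5, a glutamine carrier, had a value of 0.33 (adjusted p = 8.69e-06), which was 0.096 after the correction (adjusted p = 0.127). SLC36A4 fell by 0.30 on the log2 scale (adjusted p = 0.000697), a call that the correction removed. The lower count of the list was 0 after the correction and 1 without WT replicate 2.

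In serine, glycine and proline synthesis 4 of 10 genes were called higher and 3 lower. The lower count was 1 with DESeq2 and without KO replicate 1, WT replicate 1 or WT replicate 2, and the higher count was 2 after the correction. The higher genes were SHMT1 (log2 fold change 0.19, adjusted p = 0.0281, edgeR), SHMT2 (0.28, adjusted p = 8.76e-05), MTHFD1L (0.32, adjusted p = 6.22e-05) and PYCR1 (0.51, adjusted p = 0.000224). ALDH1L2 fell by 4.25 on the log2 scale (adjusted p = 5.23e-14). PSAT1 and ALDH18A1 were called lower at -0.19 and -0.16 (adjusted p = 0.0163 and 0.0476). After the correction PYCR1 was at 0.20 and did not pass (adjusted p = 0.134). Of the 20 cytosolic tRNA synthetases, 6 were called higher and 5 lower with a median of 0.005. The higher count was 3 without WT replicate 2, with library totals and after the correction, and the lower count was 3 without WT replicate 1. NARS1, for asparagine, fell by 1.04 on the log2 scale (adjusted p = 1.73e-15) and also lies on chromosome 18. FARSA, for phenylalanine, had a value of 0.38 (adjusted p = 1.04e-05), which was 0.11 after the correction (adjusted p = 0.13), and IARS1, for isoleucine, of -0.35 (adjusted p = 1.72e-06).

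**Figure D4:**
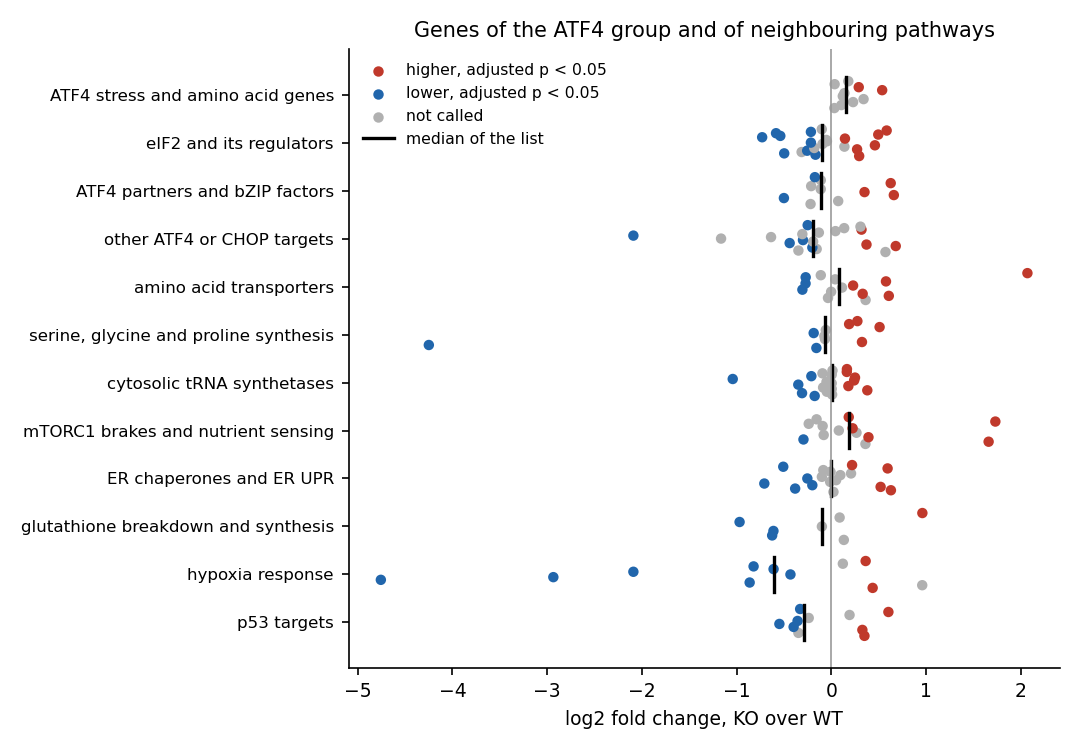
log2 fold change of KO over WT for each tested gene of the 10-gene group and of 11 neighbouring lists, with called genes in red (higher) or blue (lower), genes not called in grey and the median of each list as a black bar. The 10 genes lie between 0.033 and 0.54, and the other lists hold calls in both directions.

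SESN2 and DDIT4 also belong to the nutrient and oxygen controls of mTORC1, of which 13 further genes were tested. Of these, 5 were called higher and 1 lower (38.5% and 7.69%), with a median of 0.19. SESN3, a sestrin like SESN2, was at 6.94 and 9.21 CPM in KO and at 2.32 and 2.52 CPM in WT, a rise of 1.73 in log2 fold change (adjusted p = 1.89e-06, edgeR). SESN1 was at 10.3 and 7.93 CPM in KO and at 10.8 and 10.7 CPM in WT, and its value of -0.24 did not pass (adjusted p = 0.326). MLST8, a subunit of the mTOR complexes, had a value of 0.39 (adjusted p = 0.00018), which was 0.045 after the correction. RHEB, the GTPase that activates mTORC1, had a value of 0.23 (adjusted p = 0.0211), and DEPDC5, a brake on the amino acid signal, of -0.29 (adjusted p = 0.0336). With DESeq2 neither passed (adjusted p = 0.0947 and 0.181), and the list held 2 higher calls and 0 lower. The split was even in 2 other settings. With library totals the list held 3 higher and 3 lower calls, and after the length and GC correction it held 2 and 2. Without KO replicate 1 it held 3 higher and 0 lower, without WT replicate 1 it held 2 and 0, and without WT replicate 2 it held 4 and 0.

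Controls shared with other pathways were set beside SESN2 and DDIT4. Of 11 hypoxia response genes 2 were called higher and 7 lower, with a median of -0.61. CA9 fell by 4.76, EGLN3 by 2.93 and BNIP3 by 0.86 on the log2 scale (adjusted p = 2.33e-16, 1.12e-18 and 6.37e-13, edgeR). The 2 higher genes were VEGFA at 0.36 and ADM at 0.44 (adjusted p = 3.24e-06 and 7.27e-05, edgeR). SLC2A1 at 0.12 did not pass (adjusted p = 0.0819). DDIT4 had the value of 0.14 given above. Of 10 p53 targets 3 were called higher and 4 lower, with TP53I3 at 0.60 (adjusted p = 0.00746) and MDM2 at -0.55 (adjusted p = 2.89e-07), and FAS and RRM2B at -0.40 and -0.36 (adjusted p = 0.0126 and 0.019). CDKN1A and BAX were called higher at 0.33 and 0.35 (adjusted p = 0.0125 and 0.00278, edgeR). ZMAT3 was called lower at -0.33 (adjusted p = 0.0476). With DESeq2 the p53 list held 1 higher and 1 lower call, and the calls of TP53I3, FAS and RRM2B were among those lost (adjusted p = 0.0841, 0.107 and 0.134). After the correction for length and GC content the p53 list held 0 higher and 2 lower calls. Without WT replicate 1 it held 0 higher and 2 lower, and without KO replicate 1 or WT replicate 2 it held 2 of each. The part of these pathways in the levels of SESN2 and DDIT4 was not tested.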

How the data were processed

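The 10 genes and all gene lists were chosen with earlier results of these data known. RNA of 2 KO and 2 WT cultures, described by the study as independent, was sequenced as 50-nt reads. The authors deposited raw counts for each gene and, separately, RPKM values, which equal the count over gene length and library total to within 1.82e-05%. The submitters' processing notes name STAR 2.5, HTSeq and hg19. Annotation and strand use are not given in the sources used here. Positions came from GENCODE release 29 and promoters from RefSeq, both GRCh38, by identifier or symbol, and 10 of 10 genes matched.

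Counts were filtered with filterByExpr, scaled by TMM (factors 0.975 to 1.03) and compared with edgeR 4.0.16 in R 4.3.3 (glmQLFit, glmQLFTest, no replicate term), with Benjamini-Hochberg adjustment over 15104 genes and a threshold of 0.05. CPM uses TMM-scaled totals. SEs come from the fold change and F statistic. Replicate pairs differed beyond sampling noise (chi-square 4.20 per degree of freedom in KO, 3.36 in WT). The biological coefficient of variation was 5.88%, and depth limits mainly the low genes. GC content, of the longest transcript, and length covered 97.2% of tested genes, and were corrected by splines with 4 degrees of freedom per library. DESeq2 1.42.0 and limma 3.58.1 were alternatives. The tests were tested on simulated data.

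Named genes are the 10, ATAD3A, ATAD3B, the 3 genes nearest to ATF4 in pattern, 7 stress genes (ATF3, PPP1R15A, EIF2AK1, EIF2AK3, EIF2AK4, OMA1, DELE1), and up to 4 called genes per list with the largest absolute change and an average log2 CPM of at least 1. FGF21, SESN1, GDF15, EIF2AK2, PPP1CA, PPP1CC, HSP90B1, DNAJB11, DNAJC3, SEL1L and SYVN1 were named after their values were seen. The same holds for SHMT1, PSAT1, ALDH18A1, VEGFA, ADM, SLC2A1, CDKN1A, BAX and ZMAT3.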

Additional observations from a re-analysis of the deposited data

How the results depend on the processing

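With 2 libraries per group the limits are those of small changes: a rise of SESN2 held under every alternative run, from 0.36 to 0.57, and that of SLC3A2 kept its direction. The 10 genes held 1 higher call with the thresholds of the study's methods, where SLC3A2 (0.29) fell short of the fold, and 1 with the replicate block and the length and GC correction together (SLC3A2 at 0.097). The called lower count was 1 (SLC7A5) with the correction and 1 with the block as well. Over all genes tested, same-numbered libraries did not deviate together (correlation of deviations -0.022). A shared preparation that affects only some genes could be missed by this value, and none is stated in the sources used here. The replicate block alone kept 2 higher members and moved all genes from 3074 higher and 2891 lower to 3010 and 2810, and 5773 genes were called in the same direction by both fits.

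Values below 0 were obtained with the length and GC correction, first alone and then with the block, for ATF4 (-0.1005, -0.1006), ATF5 (-0.02815, -0.02762), DDIT3 (-0.06581, -0.08159), ASNS (-0.002992, -0.003661), TRIB3 (-0.0695, -0.06897), DDIT4 (-0.1109, -0.1115), SLC7A5 (-0.1503, -0.1497), CEBPD (-0.1211, -0.1207) and EIF4EBP1 (-0.1014, -0.1012). With library totals ASNS was -0.03693 and SLC7A5 -0.03407. On log2(RPKM + 1) and log2(RPKM + 0.1) values ASNS was -0.03746 and -0.03839, and SLC7A5 -0.03324 and -0.03327. The median of the 10 genes was 0.0896 with library totals, -0.047 with the correction, -0.048 with the block as well, and 0.0878 and 0.0902 on the RPKM scales. The cause was not tested.

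With each library left out in turn, where the lone sample of a group is assumed to vary like the other group, the ranges were 0.063 to 0.17 for ATF4, -0.21 to 0.42 for DDIT3, -0.032 to 0.11 for ASNS, 0.095 to 0.19 for DDIT4, -0.0097 to 0.085 for SLC7A5 and 0.13 to 0.21 for the median of the 10. Higher calls among the 10 numbered 2 to 3 and lower calls 0. Over all genes, 1881 were lower with DESeq2 and 1847 with the study's thresholds. In the 11 lists together, 42 genes were higher and 45 lower. The higher count was 26 with the correction and 24 with the block as well, and the lower count was 23 with the study's thresholds.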

Other observations

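Genes of the endoplasmic reticulum arm of the unfolded protein response, which shares PERK and ATF4 with the integrated stress response, were called in both directions, with 4 of 17 higher and 5 lower and a median log2 fold change of -0.0077. EDEM1, which helps to clear misfolded glycoproteins, fell by 0.71 on the log2 scale (adjusted p = 2.64e-10, edgeR). HSP90B1, DNAJB11, DNAJC3 and SEL1L were also called lower, at -0.25, -0.38, -0.20 and -0.51 (adjusted p = 5.27e-05, 1.76e-05, 0.0342 and 6.88e-08, edgeR). The higher genes CRELD2, SDF2L1 and DNAJB9 had values of 0.63, 0.60 and 0.52 (adjusted p = 5.26e-05, 1.17e-06 and 0.0323). SYVN1 was called higher at 0.22 (adjusted p = 0.0358). SDF2L1 was at 0.10 after the length and GC correction and did not pass (adjusted p = 0.365), and DNAJB9 did not pass with DESeq2 (adjusted p = 0.198), where the list held 2 higher calls, as it did without WT replicate 2.

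Of 7 genes of glutathione breakdown and synthesis around CHAC1, 1 was called higher and 3 lower. GCLC and GCLM, the subunits of the enzyme that starts glutathione synthesis, fell by 0.62 and 0.61 on the log2 scale (adjusted p = 2.04e-06 and 1.07e-07, edgeR), and GGT1, which breaks down glutathione outside the cell, fell by 0.97 (adjusted p = 9.39e-06). OPLAH, which returns the product of that breakdown to glutamate, rose by 0.96 (adjusted p = 7.67e-09).

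The genes most like ATF4 in centred log2 CPM over the 4 libraries, among 11223 genes compared, were TRAF7, EPS8 and PSMB4, with root mean square distances of 0.0058, 0.0066 and 0.0073. The choice by pattern also fixes their difference between KO and WT, so it is not given as a result.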
